A study of Mus musculus with 6 samples.

Results

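The interferon-induced GTPases of the mouse brain were followed here through 8 genes of the guanylate-binding protein (GBP) and immunity-related GTPase (IRG) families: Gbp2, Gbp3, Gbp7, Irgm1, Irgm2, Igtp, Iigp1 and Gm4951. They comprised every probe set to which the platform annotation gave one of these symbols and no other, which made 11 probe sets of the 45037 tested and 8 of 18193 named genes. Gbp2, Gbp7 and Iigp1 had 2 probe sets each and the other 5 genes had 1. Expression was measured in total RNA of brain on 6 one-colour oligonucleotide arrays in 3 groups of 2. The series asks what loss of Pofut1, the enzyme that attaches O-fucose to Notch receptors, does to adult neural progenitor cells. The group called NestinCre control had Nestin cre and Pofut1 wild type, the Flox control group had Pofut1flox/flox with no transgene named, and the Pofut1 knockout group had Nestin cre with Pofut1flox/flox. All mice were C57/Bl6 and 2 months old. The Nestin promoter drives Cre in neural progenitors, so that their neuronal, astrocytic and oligodendroglial progeny inherit the deletion, whereas microglia and blood-derived cells come from other lineages. The 2 arrays of a group are described as replicates of brains. In the NestinCre control and knockout groups the 2 arrays were of opposite sex by Xist and Eif2s3y, hence of separate animals. For the 2 Flox control arrays, both female, nothing says so, and their scatter could be technical.

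GBPs and IRGs are families of GTPases that most cells make in quantity only after interferon. Their promoters are known for gamma-activated sites (GAS), through which interferon gamma acts, and for interferon-stimulated response elements (ISRE), which interferon regulatory factors bind. The proteins assemble on the membranes of vacuoles that hold intracellular parasites and bacteria: the Irgm proteins act as regulators that protect the cell's own membranes, while Iigp1 and the GBPs are effectors that coat and disrupt the vacuole. In brain they are known mainly as products of microglia, astrocytes and vascular cells exposed to interferon.

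Promoter sequences are shown because several of these genes were higher in the same arrays and because these families are known for interferon response motifs. RefSeq promoter windows of assembly GRCm38.p6, reaching from 250 bases before to 50 bases after a transcript start, were read for 6 of the 8 genes: Gbp2, Gbp3, Gbp7, Irgm1, Irgm2 and Igtp. The selection by symbol left out 1 chromosome, and no window of Iigp1 or Gm4951 was read. Nothing is therefore said of the promoters of Iigp1 and Gm4951. The 120 bases before the start are given 5′ to 3′ on the gene's own strand, for the first of the 2 windows in the case of Gbp3, with capitals for bases inside a match to the GAS letters TTCNNNGAA or to the ISRE core letters GAAANNGAA, each searched on both strands.
Gbp2, chr3:142620543-142620662, plus strand: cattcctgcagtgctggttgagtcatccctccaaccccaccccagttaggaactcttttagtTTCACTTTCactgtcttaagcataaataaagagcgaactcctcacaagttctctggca
Gbp3, chr3:142559924-142560043, plus strand: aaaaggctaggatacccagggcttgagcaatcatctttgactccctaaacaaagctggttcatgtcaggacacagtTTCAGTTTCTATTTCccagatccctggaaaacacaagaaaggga
Gbp7, chr3:142530216-142530335, plus strand: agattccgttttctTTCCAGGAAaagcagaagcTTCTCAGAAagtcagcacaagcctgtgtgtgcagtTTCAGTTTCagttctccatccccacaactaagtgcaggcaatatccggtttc
Irgm1, chr11:48871421-48871540, minus strand: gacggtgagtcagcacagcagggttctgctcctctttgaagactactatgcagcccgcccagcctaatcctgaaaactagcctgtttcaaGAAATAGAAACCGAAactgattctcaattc
Irgm2, chr11:58214857-58214976, plus strand: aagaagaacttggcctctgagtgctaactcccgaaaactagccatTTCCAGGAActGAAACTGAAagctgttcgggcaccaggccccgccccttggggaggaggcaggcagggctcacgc
Igtp, chr11:58199436-58199555, plus strand: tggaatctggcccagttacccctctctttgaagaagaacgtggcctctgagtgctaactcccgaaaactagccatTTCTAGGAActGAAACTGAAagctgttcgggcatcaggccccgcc
Each of these 6 windows held at least 1 ISRE core within the 64 bases before the start, the nearest in Irgm1 at bases -24 to -16 and the farthest in Irgm2 at -64 to -56. In Gbp3 and in Irgm1 there were 2 cores that overlapped by 3 bases. The GAS letters occurred in Gbp7, which had 2 matches, and in Irgm2 and Igtp, which had 1 each, and no match was found in the windows of Gbp2, Gbp3 and Irgm1. Over all 32851 windows of the table, 8.56% held the ISRE core and 8.30% the GAS letters. Irgm2 and Igtp, which lie side by side in the genome, shared an unbroken run of 61 identical bases that spans both annotated starts and begins downstream of the motifs. Their GAS and ISRE matches had the same spacing and were closer to the start in Igtp. The second Gbp3 window held neither motif. A match describes letters in a window and is no measure of binding.

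**Figure D1:**
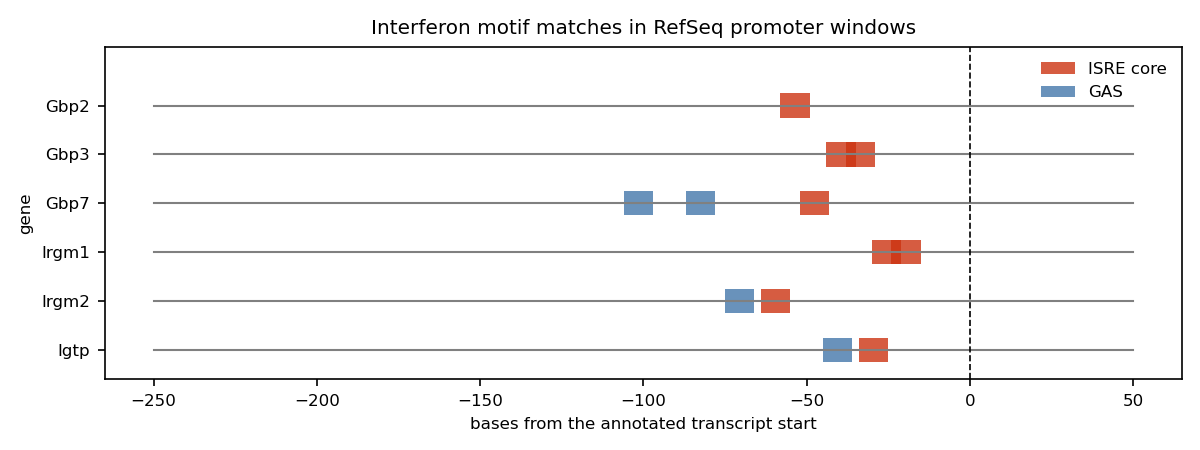
Positions of ISRE core (red) and GAS (blue) letter matches in the RefSeq promoter windows of 6 genes, in bases from the annotated transcript start (dashed line); the grey line is the window searched. Each window has an ISRE core close before the start, and Gbp7, Irgm2 and Igtp also have GAS matches upstream of it.

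The arrays were alike in scale: their medians lay between 7.32 and 7.36 on the log2 scale, and the Pearson correlation within a group was 0.993 to 0.995. Pofut1, by its brightest probe set, was at 9.25 and 9.44 in the knockout arrays and 9.77 to 9.95 in the 4 controls (log2 difference -0.50, SE 0.08, limma adjusted p = 0.211), so the targeted gene was lower without passing the test. Levels of Xist and Eif2s3y placed 2 arrays as male (NestinCre control replicate 2, knockout replicate 1) and 4 as female. With sex as a covariate the median difference of the 8 GTPase genes between knockout and both controls was 0.48, against 0.49 without it. In whole brain RNA, more cells of a type and more RNA per cell cannot be told apart.

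In knockout brain 7 of the 8 GTPase genes lay above all 4 control arrays, Irgm1 by the narrowest gap, and Gbp2 did not. The log2 differences against the average of the 2 control groups were 0.95 for Gm4951, 0.79 and 0.77 for the 2 probe sets of Iigp1, 0.65 for Gbp3, 0.51 for Igtp, 0.48 and 0.47 for those of Gbp7, 0.46 for Irgm2 and 0.22 for Irgm1. The 2 Gbp2 probe sets stood at 0.10 and -0.19. In 9 of 11 probe sets both knockout arrays exceeded all 4 control arrays, as 8.77% of all probe sets did, and in 8 of 11 after arrays were rescaled by their medians or by quantiles, since Irgm1 then overlapped. An unadjusted limma p under 0.05 in the same direction was reached by the same number, 9 of 11, against 6.04% of all probe sets. No member passed the limma adjusted threshold of 0.05 over all 45037 probe sets, which 0.0155% of them did. The smallest limma adjusted p was 0.0692, for Gm4951. With Gm4951 and the brighter probe set of each of the other genes, the median difference over the 8 genes was 0.49, while the median of all 18193 genes was -0.02. Most members were dim, with 6 of 11 probe sets below the median of all probe sets, 7.34.

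**Figure D2:**
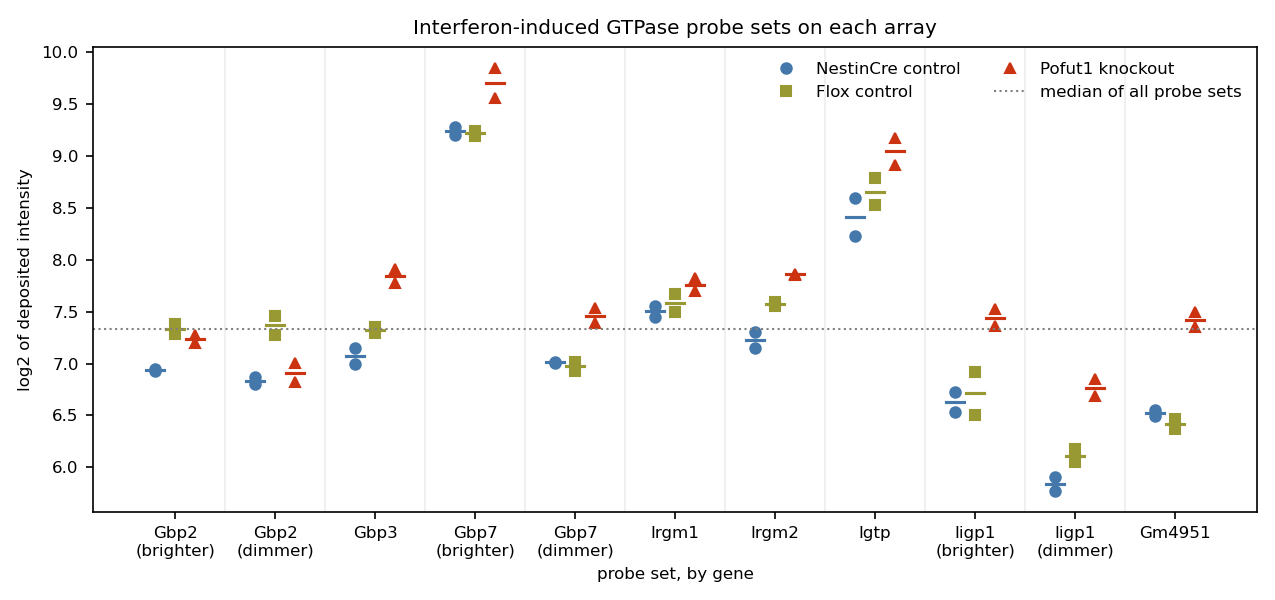
Log2 of the deposited intensity of the 11 probe sets on each of the 6 arrays, with symbols for single arrays by group, short bars for the mean of 2 arrays and a dotted line at the median of all probe sets, 7.34. The knockout triangles lie above every control symbol for all probe sets except the 2 of Gbp2, and those of Irgm1 overlap the controls once arrays are rescaled by median or quantile.

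Of Gbp2, Gbp3 and Gbp7, Gbp3 had the largest log2 difference. It stood at 7.00 and 7.15 in NestinCre control, 7.35 and 7.30 in Flox control and 7.91 and 7.78 in knockout. The 3 groups did not overlap, and NestinCre control was the lowest. Its log2 difference was 0.65 (SE 0.07, limma adjusted p = 0.138), a factor of 1.57, with 0.77 against NestinCre control and 0.52 against Flox control.

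Gbp7 was read by 2 probe sets that gave nearly the same difference. The brighter one was at 9.20 and 9.28 in NestinCre control, 9.25 and 9.19 in Flox control and 9.85 and 9.56 in knockout. The dimmer one was at 7.01 on both NestinCre control arrays, 7.02 and 6.93 in Flox control and 7.53 and 7.39 in knockout. Controls of either genotype overlapped each other on both probe sets, and knockout lay above them. The log2 differences were 0.48 (SE 0.09, limma adjusted p = 0.238) and 0.47 (SE 0.06, limma adjusted p = 0.176), and the controls differed by 0.02 (95% interval -0.26 to 0.30) and 0.04 (-0.15 to 0.23).

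Gbp2, although it is a neighbour of Gbp3 and Gbp7 in the same GBP cluster, had another order of groups. Its brighter probe set was at 6.95 and 6.93 in NestinCre control, 7.38 and 7.28 in Flox control and 7.28 and 7.20 in knockout. The dimmer one was at 6.87 and 6.80 in NestinCre control, 7.46 and 7.28 in Flox control and 7.00 and 6.82 in knockout. On both, Flox control was the highest group and NestinCre control the lowest, and knockout arrays overlapped NestinCre control on the dimmer probe set. The brighter set differed by 0.30 (SE 0.06, limma adjusted p = 0.554) from NestinCre control and by -0.10 (SE 0.06, limma adjusted p = 0.539) from Flox control. For the dimmer set the same comparisons gave 0.08 (95% interval -0.18 to 0.33) and -0.46 (-0.71 to -0.21), with limma adjusted p of 1 and 0.165. The dimmer probe set carries the suffix by which the array design marks probes shared with other sequences, so closely related GBP transcripts may contribute to it. How far paralogs share signal on the other probe sets of these families was not tested.

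The Irgm proteins, which regulate the family, differed in size of separation. Irgm1 was at 7.55 and 7.45 in NestinCre control, 7.67 and 7.50 in Flox control and 7.70 and 7.82 in knockout. Its lower knockout array cleared the highest control array by 0.02, a gap that closed when array medians were subtracted, and its log2 difference was 0.22 (SE 0.08, limma adjusted p = 0.424), the smallest of the 7 genes. Irgm2 was at 7.15 and 7.31 in NestinCre control, 7.60 and 7.55 in Flox control and 7.86 and 7.87 in knockout. The 3 groups of Irgm2 were again ordered NestinCre control, Flox control, knockout with no overlap, and the difference was 0.46 (SE 0.06, limma adjusted p = 0.176).

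Igtp, also named Irgm3, was at 8.59 and 8.23 in NestinCre control, 8.79 and 8.53 in Flox control and 9.18 and 8.91 in knockout. Its replicates spread more than those of most members, by 0.36 within NestinCre control, and the controls overlapped. The log2 difference of 0.51 therefore had the largest SE of the 11 probe sets, 0.15 (limma adjusted p = 0.350). Igtp and Irgm2, the neighbours whose promoter windows are alike, had log2 differences of 0.51 and 0.46.

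Iigp1, an effector IRG that coats parasite vacuoles, and Gm4951, a predicted IRG encoded near it, showed the largest separations. Iigp1 was at 6.73 and 6.54 in NestinCre control, 6.92 and 6.50 in Flox control and 7.52 and 7.36 in knockout on its brighter probe set. On the dimmer one it was at 5.77 and 5.91, 6.18 and 6.05, and 6.85 and 6.69 in the same order. Knockout lay above all controls on both, by gaps of 0.44 and 0.51 between the nearest arrays. The differences were 0.77 (SE 0.14, limma adjusted p = 0.225) and 0.79 (SE 0.08, limma adjusted p = 0.115).

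Gm4951 was at 6.49 and 6.55 in NestinCre control, 6.46 and 6.36 in Flox control and 7.35 and 7.49 in knockout. It was the member with the widest gap: the lower knockout array was 0.80 above the highest control array, while the 4 controls spanned 0.18. Its log2 difference was 0.95 (SE 0.07), a factor of 1.94. The limma adjusted p was 0.0692 over all probe sets. This p became 0.00977 with an intensity trend and robust fitting, 0.025 with 1 probe set per gene and 0.0205 among brighter probe sets. Gm4951, the dimmer Gbp7 set and the brighter Iigp1 set passed that filter through their knockout arrays alone. With the replicate block the limma adjusted p of Gm4951 rose to 0.294. With sex as a covariate the smallest limma adjusted p of any member was 0.205. Leaving out single arrays moved the difference of Gm4951 over 0.88 to 1.03.

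Against NestinCre control alone, which shares the transgene and differs in the Pofut1 alleles, all 11 probe sets had a difference above 0, from 0.08 for the dimmer Gbp2 set to 0.93 for the dimmer Iigp1 set. Both knockout arrays exceeded both NestinCre control arrays in 10 of 11, as 16.4% of all probe sets did. None passed the limma adjusted threshold, as 0% of all probe sets did, and 10 of 11 had an unadjusted limma p under 0.05, against 5.81% of all probe sets. The median over the 8 genes was 0.63. Against Flox control alone, which shares the floxed alleles and differs in the transgene, the median was 0.44 and both Gbp2 sets were below 0. Knockout exceeded Flox control without overlap in 9 of 11, against 22% of all probe sets. Again none passed, where 0.00444% of all probe sets did, and 8 of 11 had an unadjusted limma p under 0.05, against 15.9% of all probe sets, among them the dimmer Gbp2 set with its negative difference.

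Since the 2 comparisons share the knockout arrays, the gap between them is the difference between the controls. NestinCre control was below Flox control without overlap in 5 of 11 probe sets, against 23.6% of all probe sets. They were both Gbp2 sets, Gbp3, Irgm2 and the dimmer Iigp1 set. The log2 differences were -0.39 (SE 0.06) and -0.53 (SE 0.10) for Gbp2, -0.35 (SE 0.07) for Irgm2, -0.25 (SE 0.08) for Gbp3 and -0.27 (SE 0.09) for Iigp1, with limma adjusted p from 0.376 to 0.449. Gbp7 and Gm4951 differed by 0.11 at most, and the brighter Iigp1 set by -0.08 (95% interval -0.50 to 0.34). None of the 11 passed, as 0% of all probe sets did, and 5 had an unadjusted limma p under 0.05, against 10.4% of all probe sets. The median over the 8 genes was -0.16. It moved to -0.05 without NestinCre control replicate 2 and to -0.28 without Flox control replicate 2, so single control arrays decide its size.

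**Figure D3:**
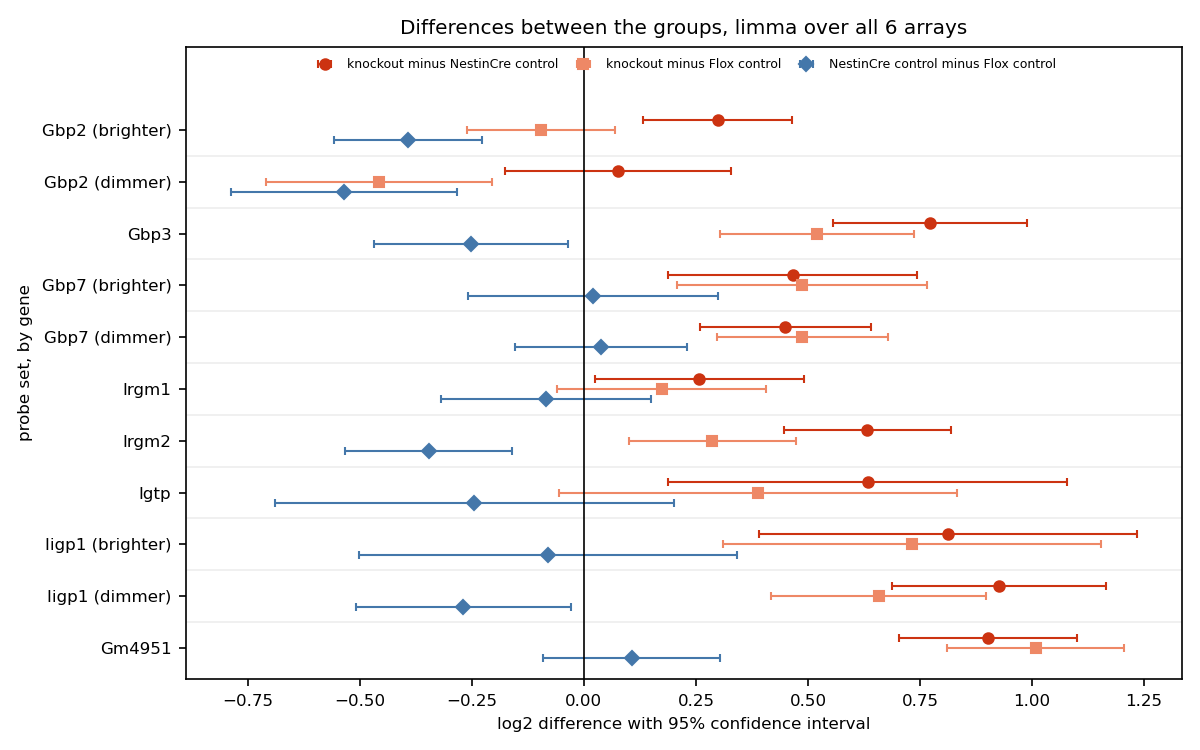
Limma log2 differences with 95% intervals for the 11 probe sets: knockout minus NestinCre control (dark red circles), knockout minus Flox control (orange squares) and NestinCre control minus Flox control (blue diamonds). Gbp7 and Gm4951 have control differences near 0 and knockout differences above it, while for Gbp2 the blue interval lies below 0 and the red and orange points fall on opposite sides of 0 for both probe sets.

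Other members of the GTPase families were taken from fixed lists by the brightest probe set of each gene. Of 3 further GBPs, Gbp6 was higher in both knockout arrays than in all controls, at 8.67 and 8.52 against 7.69 to 8.10 (log2 difference 0.69, SE 0.13, limma adjusted p = 0.227). Gbp8 differed by 0.17 and Gbp2b by -0.02, and both were dim. The 3 further IRGs measured, Gm12185, Irgc1 and Irgq, differed by 0.03, 0.02 and -0.0029, with overlapping groups. Gm12185 and Irgc1 were dim as well. Of the Mx GTPases, which act against viruses, Mx1 differed by 0.41 (SE 0.08, limma adjusted p = 0.230) without overlap and Mx2 by 0.02. The atlastins, dynamins, mitofusins and Opa1, structurally related GTPases of membrane fusion and fission that are not known for interferon induction, had a median of -0.05 over 9 genes, with Mfn1 at 0.18, Atl1 at -0.18 and Mfn2 at -0.14. None of these 17 genes passed the limma adjusted threshold.

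Upstream of the GTPases, no interferon ligand or receptor had knockout above all controls, where 7.23% of all genes did. A count of none among 9 genes is near that share. Of 9 measured, 1 was above 0 and 8 were below, with a median of -0.03, where 40.7% of all genes were above 0. The only ligands on the list were Ifng and Ifnb1, both close to the dimmest values, so the list says little of the ligands. Ifng itself, named here after its values were seen, lay between 5.37 and 5.48 on all 6 arrays, close to the dimmest values of the table, and its difference was -0.03 (SE 0.05). Ifnar1 differed by 0.08 and Ifnar2 by -0.14, and the shared receptor chain Il10rb by -0.25 (limma adjusted p = 0.449). Among 10 genes of signal transduction, 4 had knockout above all controls, against 7.23% of all genes. They included Irf8, an interferon-responsive factor of myeloid cells, at 0.45 (SE 0.07, limma adjusted p = 0.183) and the kinase Jak2 at 0.18 (SE 0.07). Irf9 and Irf7 stood at 0.29 (SE 0.12) and 0.29 (SE 0.15), and their groups overlapped. The median of that list was 0.12 and none passed. Of its 10 genes, 7 were above 0 and 3 below. The 3 below, named after their values were seen, were Stat3 at -0.03, Irf1 at -0.015 and Irf2 at -0.0069, with overlapping groups.

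Targets of interferon other than GTPases were split by family. Of 18 interferon gamma targets, Cxcl10, a chemokine, rose (1.30, SE 0.06, limma adjusted p = 0.0345). It was the 1 that passed, where 2 of all 18193 genes passed in that direction. Knockout lay above all controls in 5 (27.8%), against 7.23% of all genes. Among these 5 was Cxcl11, named after its values were seen, which was dim and differed by 0.11. With any 1 array left out, the 7 calls over all probe sets in this comparison dropped to 0 or 1. The others with the smallest p were Nlrc5, the activator of class I histocompatibility genes, at 0.99 (SE 0.12), the immunoproteasome subunit Psmb8 at 0.55 (SE 0.06) and Cd274 at 0.44 (SE 0.12). The list's median was 0.08. Antiviral targets had a median of 0.50, close to the 0.49 of the GTPases, and 13 of 15 had knockout above all controls, where 7.23% of all genes did. Usp18 stood at 1.05 (SE 0.09), Oasl2 at 0.89 (SE 0.13), Ifit1 at 0.73 (SE 0.06) and Ifi27 at 0.68 (SE 0.09), and none passed the limma adjusted threshold. The autophagy conjugation genes that help to place GTPases on vacuoles had a median of -0.06 over 10 genes, with none past the threshold. None lay above all controls, where 7.23% of all genes did. Below all controls lay 2 (Atg7 and Map1lc3a), where 10.9% of all genes did. With 10 genes, such counts are not far from those shares.

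**Figure D4:**
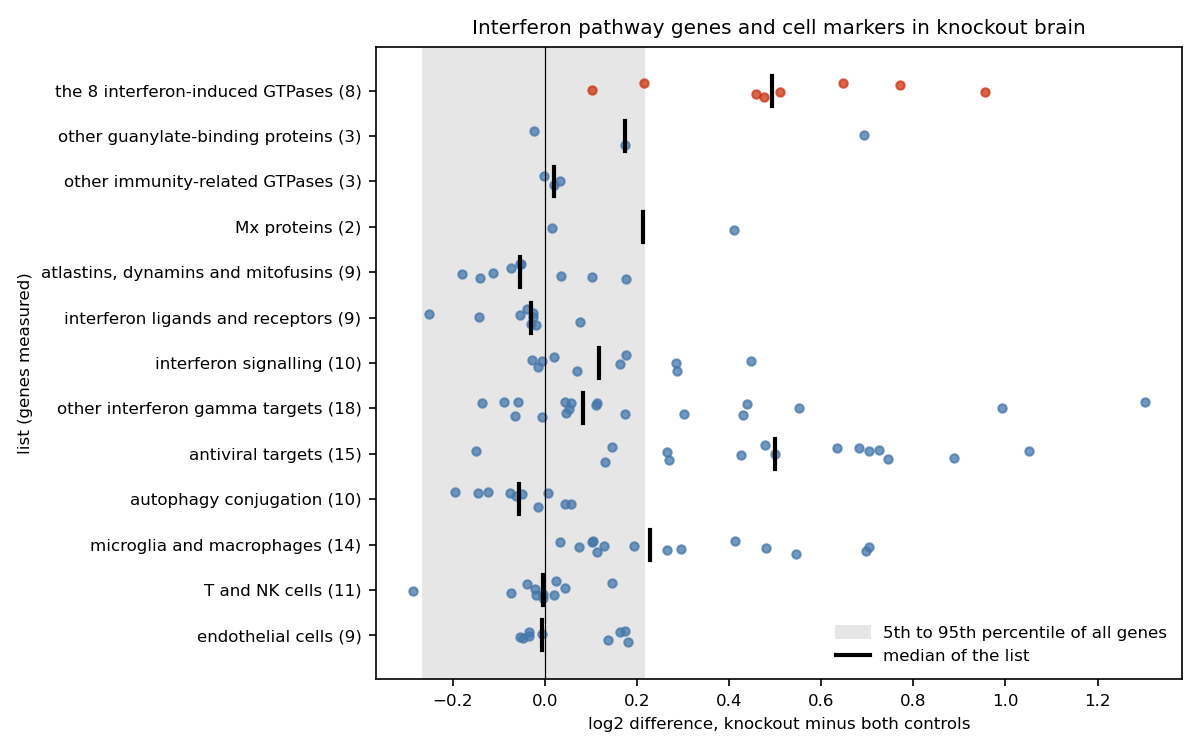
Log2 differences of knockout minus both controls for the 8 GTPase genes (red) and for genes of other lists (blue), 1 point per gene, with a black bar at each list's median and a grey band from the 5th to the 95th percentile of all 18193 genes, -0.26 to 0.22. The GTPases and the antiviral targets have medians of 0.49 and 0.50, and those of ligands and receptors, autophagy conjugation, T and NK cells and endothelial cells lie near 0.

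Markers of the cells that could carry these transcripts were read beside them. All 14 microglia and macrophage markers were above 0, with a median of 0.23, and 8 had knockout above all controls. Of all genes, 40.7% were above 0 and 7.23% had knockout above all controls. Their summed intensity was 12880 and 12940 in NestinCre control, 13570 and 14210 in Flox control and 14900 and 15240 in knockout, the same order of groups as for Gbp3 and Irgm2. The order of the 2 controls was not particular to these markers. Summed over all 18193 genes, NestinCre control was at 16760000 to 17030000, Flox control at 17240000 to 17370000 and knockout at 16790000 to 17020000. Among the microglia and macrophage markers, Ptprc (0.70, SE 0.09), Aif1 (0.70, SE 0.06), Tyrobp (0.48, SE 0.07) and Mrc1 (0.41, SE 0.08) had the smallest p. The homeostatic markers P2ry12 and Tmem119, named after their values were seen, were each at 0.10. Small differences were not confined to homeostatic markers, with Cd68 at 0.11, while the homeostatic Cx3cr1 was at 0.19. Itgam was at 0.03, but it lay close to the dimmest values, at 5.44 to 5.51, so its difference says little. It counts among the 8 above all controls by a lower knockout array of 5.50383 against a highest control of 5.50355. The summed intensity of the 8 GTPase genes was 1704 and 1752, 1809 and 1985, and 2409 and 2683 in the same 3 groups. The part of microglial markers in the GTPase result was not tested.

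Of 11 markers of T and NK cells, the usual makers of interferon gamma, 4 were above 0 and 1 had knockout above all controls, a share near the 7.23% of all genes. The median was -0.0047, and their summed intensity was 1119 to 1169, 1160 to 1183 and 1092 to 1129. No marker was listed at 0, since the processed values have a floor, but Cd3d lay near it, with 5.71 and 5.74 in knockout against 5.63 to 5.72 in controls. All of the 11 except Cd4 and Prf1 were dim, with means below the median of all probe sets. The list therefore says little of T and NK cells, and Cd4 and Prf1 weigh most in its sum. Endothelial markers had a median of -0.0057 over 9 genes and none with knockout above all controls, where 7.23% of all genes did. With 9 genes, such a count is near that share. Most pericyte and smooth muscle markers were lower, and 7 of 10 lay below all controls, as 10.9% of all genes did. Rgs5, at a log2 difference of -2.16 (SE 0.08, limma adjusted p = 0.0263), was the 1 that passed. Kcnj8 at -0.11, Abcc9 at -0.06 and Cspg4 at 0.04, named after their values were seen, overlapped the controls. Astrocyte markers were mixed, with Gfap at 0.86 (SE 0.07) and Slc1a2 at -0.23 (SE 0.05). Neuronal markers had a median of -0.02 over 9 genes, oligodendrocyte markers -0.04 over 6, meningeal fibroblast markers 0.0038 over 7 and blood markers 0.0030 over 4, and the neuronal Snap25, a check of the labelled tissue named after its values were seen, was at 13.03 to 13.13. The part of these lists in the GTPase result was not tested either.

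The genes whose profile over the 6 arrays was most like the mean of the 8 GTPases were H2-K1 and H2-D1, class I histocompatibility genes, the interferon-responsive ubiquitin ligase Rnf213, the RIKEN transcript 2900076A07Rik, hexokinase Hk2 and the leukocyte phosphatase Ptprc. Pearson correlations over 6 arrays were 0.982 for H2-K1, 0.968 for Rnf213, 0.967 for H2-D1 and for 2900076A07Rik, and 0.965 for Hk2 and for Ptprc, the highest among 1872 genes compared. They are given as a description, since the 6 arrays fall into few groups. The GTPase profile was itself higher in knockout, so genes chosen for likeness to it had to be higher there too. Their log2 differences were 0.72 for H2-K1, 0.58 for Rnf213, 0.69 for H2-D1, 0.43 for 2900076A07Rik, 0.49 for Hk2 and 0.70 for Ptprc, and none passed, with limma adjusted p from 0.107 to 0.241.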

How the data were processed

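Total RNA of mouse brain was hybridised to 6 one-colour arrays, after amplification and biotin labelling per the labels' protocols. Per the labels and the table itself, the deposited numbers are linear intensities, 1 per probe set and array; the submitters' processing notes name GCOS and RMA with no version, role or order, and no source used here gives the program or a genome build. RMA, where applied, brings arrays to a common distribution and understates differences of dim probe sets. The table held 45101 probe sets, of which 64 control sets were left out. Of the 45037 tested, 34945 had 1 gene symbol, 932 several and 9160 none listed, and 34741 matched the RefSeq gene table of GRCm38.p6 by Entrez ID, including all 11 studied here.

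Log2 of each intensity was fitted by limma 3.58.1 (R 4.3.3), with a mean per group over all 6 arrays (3 residual degrees of freedom, 4.94 with the prior), Benjamini-Hochberg adjustment over all probe sets, threshold 0.05. SE is that of the limma difference, intervals are 95%, and the number of arrays limits the precision. A gene on a list is read by its brightest probe set, and up to 4 genes per list with the smallest p are named. Likeness was taken over genes above the median of all probe sets with an SD of at least 0.2. The 8 genes and all lists were chosen with earlier results of these data known. Alternatives were repeated quantile normalization, subtraction of array medians, a filter on dim probe sets, trended robust eBayes, log2 of the value plus 16, 1 probe set per gene, a replicate block, the compared groups alone and each array left out. A sex covariate and a fit of only the 4 female arrays were chosen after seeing the data.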

Additional observations from a re-analysis of the deposited data

How the results depend on the processing

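Each of the 11 GTPase probe sets kept its sign for knockout against both controls under the alternatives run, and the count with knockout above all controls was 9, or 8 after quantile or median rescaling. Among brighter probe sets it was 8 of 8 tested, of which 3 passed that filter through knockout arrays alone and so had to be higher. The number of members past the limma adjusted threshold, 0 as reported, became 1 (Gm4951) among brighter probe sets and with 1 probe set per gene, against both controls and against Flox control alone, and 2 (Gm4951 and the dimmer Iigp1 set) with an intensity trend and robust fitting, against both controls and against each alone. Over all probe sets, calls against both controls went from 7 to 202 with trend and robust fitting, 61 among brighter probe sets, 34 with 1 probe set per gene, 22 with array medians subtracted 0 with sex as a covariate, and 0 or 1 with any single array left out. Leaving out single arrays moved the 8-gene median over 0.42 to 0.63 against both controls, 0.57 to 0.70 against NestinCre control, 0.32 to 0.55 against Flox control and -0.28 to -0.048 between the controls. With the female arrays alone, which hold 1 knockout array, it was 0.43 against both controls, 0.50 against NestinCre control, 0.32 against Flox control and -0.048 between the controls. The dimmer Gbp2 set turned against NestinCre control, from 0.08 to -0.049 in female arrays. Leaving out single arrays moved it over -0.015 to 0.17. Deviations of same-numbered arrays correlated at 0.19, -0.31 and -0.24. These values gave no sign of pairing by replicate number, but with 2 arrays per group they cannot exclude it. With the replicate block the 8-gene median stayed at 0.49, no member passed (smallest limma adjusted p 0.294) and calls over all probe sets went from 7 to 0. The cause of these shifts was not tested. How far low signal limits the dim members was not tested.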
